A study of Mus musculus with 18 samples.

Results

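Azoxymethane (AOM) is a carcinogen given to rodents to induce intestinal tumours, and the comparison asked how non-tumour intestine differed after AOM in mice whose diet held the medicinal herb St. John's wort (SJW). RNA of 3 samples taken after AOM injection was set against RNA of 3 samples taken after saline injection, chosen by their titles alone, so 6 of the 18 samples of the series enter. All 6 samples came from male C57BL/6 mice on the SJW diet, which both groups share. The other 12 samples were non-tumour tissue on a control diet after saline or AOM, and tumours of AOM-treated mice on each diet. They served to estimate the spread, and the control-diet samples also served to test whether the changes after AOM differed between the diets. The amount of SJW, the dose of AOM, the interval before collection and the age of the mice were not given in the sources used here. The arrays are biological replicates by the series design, which does not tie them to separate animals, so p-values measure the spread between these samples.

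AOM becomes reactive after hydroxylation by cytochrome P450 enzymes, mainly in the liver, and then methylates DNA. Hyperforin, a constituent of SJW, activates the pregnane X receptor (PXR, gene Nr1i2), which in liver and gut switches on genes that clear foreign compounds. These genes act in sequence: P450s and carboxylesterases oxidise or hydrolyse a compound, glucuronosyltransferases, sulfotransferases and glutathione transferases attach a polar group, and ABC pumps carry the product out of the cell.

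Each value below is a log2 ratio of the sample, in red, over a common pool of RNA from other mouse organs, in green, so a positive value means more signal than the pool gave. A difference between groups, AOM minus saline, is a log2 change, given ± its standard error with n = 3 arrays per group. That error takes its spread from the model fitted to all arrays of the series, tumours included. It is therefore not the scatter of the compared arrays alone. A gene was called when its p-value, adjusted over all genes, was under 0.05. In a whole-tissue sample, fewer cells of a type and less RNA per cell give the same value and cannot be told apart.

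Of 26073 genes tested, 296 (1.14%) passed, 171 higher after AOM (0.656%) and 125 lower (0.479%). Median centring of the arrays instead of loess gave 113 higher and 26 lower, so the share of higher calls was 81.3% in place of 57.8%, and it was 31.7% without saline replicate 1 and 33% without saline replicate 2. The 3 AOM arrays lay outside the range of the 3 saline arrays for each of the 296 genes. Over all genes tested the same held for 13.1% above and 15.5% below. Of all genes 47.1% had a positive and 52.9% a negative change. The median change over all genes was -0.02, and it went to -0.12 with the scanner's own log ratio or the deposited value table. The called genes moved by a median of 1.1 upward and -0.89 downward. Without SJW AOM replicate 3, the median was 1.02 over the same 171 genes and -0.80 over the same 125.

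Several arrays stood apart, and most calls rested on them. Of the 62 named genes that were called, 2 (Slc37a2 and Itgb3) passed without SJW AOM replicate 3, and 0 passed without saline replicate 3 or without AOM replicate 2, so the calls below hold for the full set of arrays. SJW AOM replicate 3 carried pancreatic acinar transcripts: the mean log2 ratio of 20 acinar markers was 3.60 there, against -0.35 and -0.21 in AOM replicates 1 and 2. The 3 saline arrays, at 0.94, 1.71 and -0.10, also differed in this mean. Amylase Amy2a5 read 1.44, 2.49 and -2.21 after saline and -1.54, -1.23 and 5.21 after AOM, so its groups overlapped. The carboxypeptidase gene Cpa1 read 0.20, 1.67 and 2.40 after saline and -1.26, -0.12 and 3.88 after AOM. Of the 20 markers, 16 to 20 were well above background on each array. The acinar median change was 0.38, and -1.25 without AOM replicate 3. Without that array the number of called genes went from 296 to 5 (0.0192%), 4 higher (Clic4, Itgb3, Mcam and Mrvi1) and Slc37a2 lower. Without SJW saline replicate 3 or AOM replicate 2 it was 0, with 3339 and 4349 genes at an unadjusted p under 0.05 in limma. It was 180 without saline replicate 1 (57 higher, 123 lower), 600 without saline replicate 2 (198 higher, 402 lower) and 219 without AOM replicate 1 (146 higher, 73 lower), so which direction held more calls also turned with the arrays kept.

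The reference channel also differed between the groups. Its median intensity was 533, 220 and 544.5 on the saline arrays and 231, 198 and 249 on the AOM arrays, so saline replicates 1 and 3 had the brighter reference. With that brightness as a covariate 7 genes passed, of which Slc37a2, Phlda3, Ccn1, Lama5, Itgb3 and Tspan4 are described here. The median red intensity of the samples was 133 to 290, and in that channel 72.2% to 79.8% of probes stood well above background. Each of 3 slides held 1 array of each group, and with slide as a block 431 genes (1.65%) passed (218 higher, 213 lower), among them 255 of the 296.

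The labels name small intestine as the tissue, and their extraction protocol names liver, so marker genes were read first. All 13 colon position genes were well above background on all 6 arrays. The intestinal regulator Cdx1 read 4.51 to 6.16 over the 6 arrays, and the carbonic anhydrase Car1, abundant in colonocytes, read 6.34 to 8.38. The 14 genes of the ileum and proximal small intestine had means of -0.76 to -0.35. Of 27 small intestine enterocyte genes 23 were well above background on all 6 arrays, and the list's mean was 0.18 to 0.71. Among the dimmer ones, Lct, the lactase gene, was well above background on 1 saline and 2 AOM arrays. The liver gene Alb read -4.08 to -2.39. These values do not settle which segment was sampled. The posterior gene Hoxd13 read 0.09 in saline replicate 3 and 3.26 to 3.84 on the other 5 arrays, so the arrays of the saline group also differed in position genes.

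Genes of drug and xenobiotic handling made up 6 of the 12 largest falls among named genes: Ces2a, Ces2b, Cyp2c55, Ugt1a1, Abcb1a and Abcb1b. Among the phase I enzymes, 1 of 17 cytochrome P450 genes fell, 16 had negative changes and 9 had all AOM arrays below all saline arrays, with a median of -1.0. Cyp2c55, an intestinal P450, read 5.89, 4.85 and 6.62 after saline and 4.32, 3.52 and 3.35 after AOM. Every AOM value lay below every saline value, and Cyp2c55 fell by 2.06 ± 0.48 (adjusted p = 0.0490). Without AOM replicate 3 it was at -1.86 (adjusted p = 0.183). Other P450 genes had large changes that did not pass. Cyp2c65, a close relative, read 5.28, 2.49 and 6.16 after saline and 2.08, 1.92 and 2.47 after AOM, a change of -2.48 ± 0.85 (adjusted p = 0.133). Its saline replicate 2 lay barely above the highest AOM array. Cyp3a13 was at -1.67 ± 0.41 (adjusted p = 0.0589), and Cyp3a11, a classical PXR target, was at -0.88 ± 0.26 (adjusted p = 0.0879). Cyp2b10, a target of the related receptor CAR, was well above background on 2 saline arrays and 0 AOM arrays, so no fold is given. Its dim signal had the 1 positive change of the list, at 0.38 ± 0.39 (adjusted p = 0.610), with overlapping groups. Cyp2e1, which acts on AOM, was at -0.14 ± 0.15 (adjusted p = 0.621). The P450 median was -1.01, -0.28 and -1.27 within slides 1, 2 and 3. Slide 2 holds the saline array with the dim reference. The median was -0.94 without AOM replicate 3 and -0.80 with reference brightness as a covariate.

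Carboxylesterases hydrolyse ester drugs and lipids. Of 11 measured, 2 fell, 10 had negative changes and the median was -1.11. Ces2a read 6.20, 4.07 and 5.82 after saline and 3.29, 2.67 and 2.30 after AOM. It had the largest fall among named genes, 2.61 ± 0.53 (6.09-fold; adjusted p = 0.0326). Saline replicate 2 was the lowest of its group, and with reference brightness as a covariate the Ces2a change was -1.83 (adjusted p = 0.0665). Ces2b fell by 1.73 ± 0.29 (adjusted p = 0.0198), with 4.37, 3.31 and 4.23 after saline against 2.54, 2.25 and 1.94 after AOM. Ces2c was at -1.50 ± 0.35 and missed the threshold (adjusted p = 0.0532). Members of the Ces2 family are similar in sequence, so their values are uncertain as those of separate genes. The list's median within slides was -1.60, -0.34 and -1.76.

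**Figure D1:**
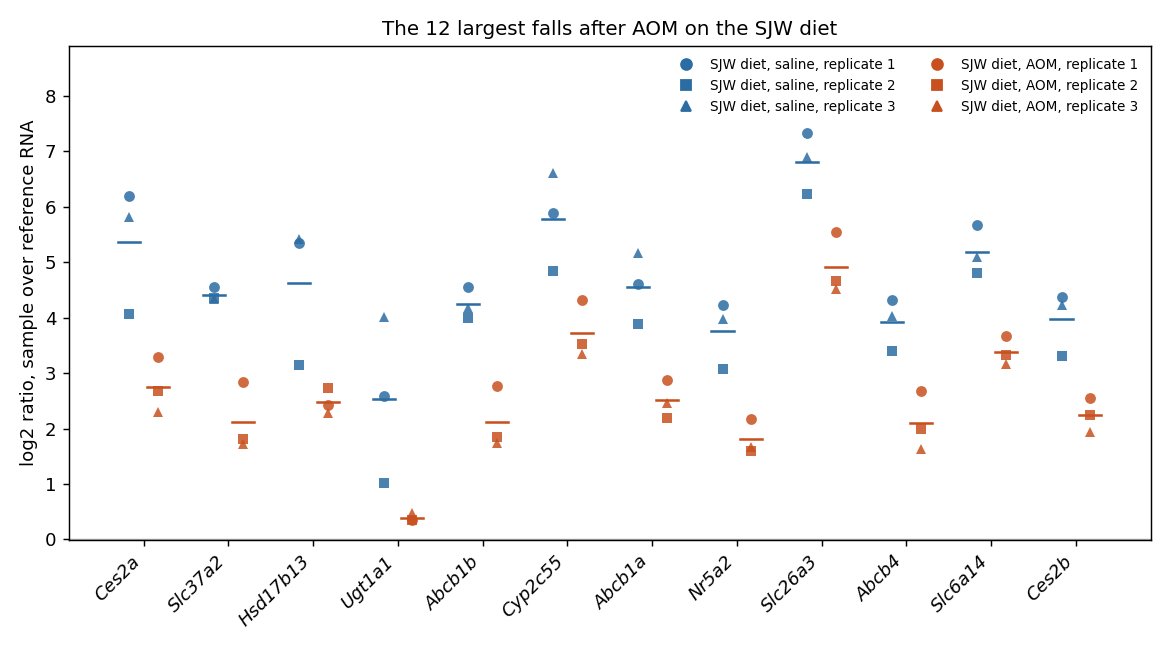
Log2 ratio of sample over reference RNA for the 12 named genes with the largest falls, with 1 point per array (circle, square and triangle for replicates 1 to 3; blue after saline, orange after AOM) and a bar at each group mean. Only genes with groups apart were eligible, so by this choice all orange points lie below all blue points of the same gene. The blue square, saline replicate 2, is the lowest blue point of Ces2a (4.07), Hsd17b13 (3.14) and Ugt1a1 (1.01).

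The conjugating enzymes followed. Of 12 glucuronosyltransferase and sulfotransferase genes 3 fell, all 12 had negative changes, and in 10 the groups did not overlap, with a median of -1.35. Ugt1a1, which conjugates bilirubin and many drugs, read 2.59, 1.01 and 4.01 after saline and 0.34, 0.35 and 0.47 after AOM. The 3 AOM arrays lay close together and the saline arrays spread over 3 log2 units. Ugt1a1 fell by 2.15 ± 0.50 (adjusted p = 0.0490), and the change was -1.02 with the red channel alone and -1.41 without saline replicate 3. Its exons beyond the start are shared with other Ugt1a genes, so the value is uncertain as that of Ugt1a1 alone. The sulfotransferase Sult1a1 read 2.60, 2.31 and 3.48 after saline and 1.68, 1.19 and 1.27 after AOM, a fall of 1.42 ± 0.27 (adjusted p = 0.0272). Sult1c2 fell by 1.18 ± 0.25 (adjusted p = 0.0369). Ugdh, which makes the sugar donor for glucuronidation, was at -1.54 ± 0.36 (adjusted p = 0.0520). Of 18 glutathione transferase genes 1 fell, Mgst2 by 0.80 ± 0.18 (adjusted p = 0.0445), with a list median of -0.30. Among 25 NRF2 and aldo-keto reductase genes 2 fell, the reductases Akr1b7 by 1.06 ± 0.19 and Akr1c12 by 0.97 ± 0.22 (adjusted p = 0.0252 and 0.0484), and the list median was -0.11, or -0.31 with median centring, -0.28 with the scanner's log ratio and -0.24 with the deposited table.

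The efflux pumps fell in 2 of 12 members, with a list median of -0.39 that went to -0.17 with reference brightness as a covariate. Abcb1a and Abcb1b encode the mouse P-glycoproteins, which expel drugs and toxins from epithelial cells. Abcb1a read 4.60, 3.89 and 5.18 after saline and 2.88, 2.18 and 2.47 after AOM, a fall of 2.05 ± 0.29 (adjusted p = 0.0198). Abcb1b read 4.55, 4.0 and 4.18 after saline and 2.78, 1.84 and 1.74 after AOM, a fall of 2.13 ± 0.32 (adjusted p = 0.0198). In both genes the lowest saline array lay at least 1 log2 unit above the highest AOM array. Both were among the 10 genes whose unadjusted p in limma stayed smallest when any 1 of the 6 arrays was left out. Their changes were -2.02 and -1.94 without AOM replicate 3 (adjusted p = 0.0638 for each). The 3 probes of Abcb1b ranged from -2.13 to -0.08. The probe at -0.08 read 0.115, 0.401 and -0.165 after saline and 0.247, 0.038 and -0.164 after AOM. Its groups overlapped, so the probes disagreed on whether the gene fell. Abcb1a and Abcb1b are also near-identical in parts. Abcb4, a phospholipid pump of the same family, fell by 1.82 ± 0.34 (adjusted p = 0.0272). Abcg2, another drug pump, was at -0.47 ± 0.30 (adjusted p = 0.394).

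The receptors of these programmes gave 0 calls among 11 in limma at this threshold, with a median of -0.32 and 10 negative changes. Nr1i2 itself read 3.73, 2.97 and 3.54 after saline and 2.96, 2.50 and 2.33 after AOM, a change of -0.82 ± 0.34 (adjusted p = 0.210; unadjusted p = 0.0302 in limma). Nr5a2, an orphan receptor that controls bile acid and steroid genes in gut and liver, fell by 1.95 ± 0.39 (adjusted p = 0.0303). It read 4.22, 3.07 and 3.97 after saline and 2.17, 1.60 and 1.66 after AOM. With the red channel alone its change was -0.97 (adjusted p = 0.0333). Hsd17b13, a lipid droplet enzyme, fell by 2.16 ± 0.48 (adjusted p = 0.0445), with a within-slide change of -0.42 on slide 2 against -2.91 and -3.14 on slides 1 and 3.

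Genes of ion, water and acid-base transport in colonocytes gave 2 falls. Of 23 measured, 22 had negative changes and 14 had groups apart, with a median of -0.79. Slc37a2, a sugar phosphate transporter, read 4.56, 4.35 and 4.34 after saline and 2.84, 1.80 and 1.72 after AOM. It had the smallest adjusted p of the comparison, with a fall of 2.29 ± 0.29 (4.90-fold; adjusted p = 0.0180). Slc37a2 passed without AOM replicate 3 (-2.09, adjusted p = 0.0491), with reference brightness as a covariate (-2.18, adjusted p = 0.0463) and when a fold of at least 1.2 was required. Slc26a3, the chloride-bicarbonate exchanger of the colon surface, read 7.33, 6.23 and 6.89 after saline and 5.55, 4.66 and 4.52 after AOM, a fall of 1.90 ± 0.38 (adjusted p = 0.0303). That fall depended on the processing, since the scanner's own log ratio gave -0.18 for Slc26a3 (adjusted p = 0.920). Slc6a14, an amino acid transporter, fell by 1.81 ± 0.34 (adjusted p = 0.0272). The sodium-proton exchangers Slc9a2 and Slc9a3 were at -1.49 ± 0.35 and -1.85 ± 0.50 (adjusted p = 0.0507 and 0.0715). The water channel Aqp8 was at -1.43 ± 0.46 (adjusted p = 0.116), and Car1 was at -1.45 ± 0.60 (adjusted p = 0.200).

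Fatty acid oxidation, a main fuel path of colonocytes, showed the same direction at smaller size. Of 30 genes 3 fell, 29 had negative changes and 16 had groups apart, with a median of -0.41. Slc25a20, which carries acylcarnitines into mitochondria, read 2.61, 1.74 and 2.38 after saline and 1.24, 1.09 and 1.26 after AOM, a fall of 1.05 ± 0.18 (adjusted p = 0.0198). Hadha, a subunit of the mitochondrial trifunctional protein, fell by 0.62 ± 0.13 (adjusted p = 0.0383). Blocking on slide gave Hadha an adjusted p of 0.0520, and with the red channel alone its change was -0.27. Respiratory chain subunits had a median of -0.17, or -0.40 with median centring, with 0 of 34 called in limma.

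**Figure D2:**
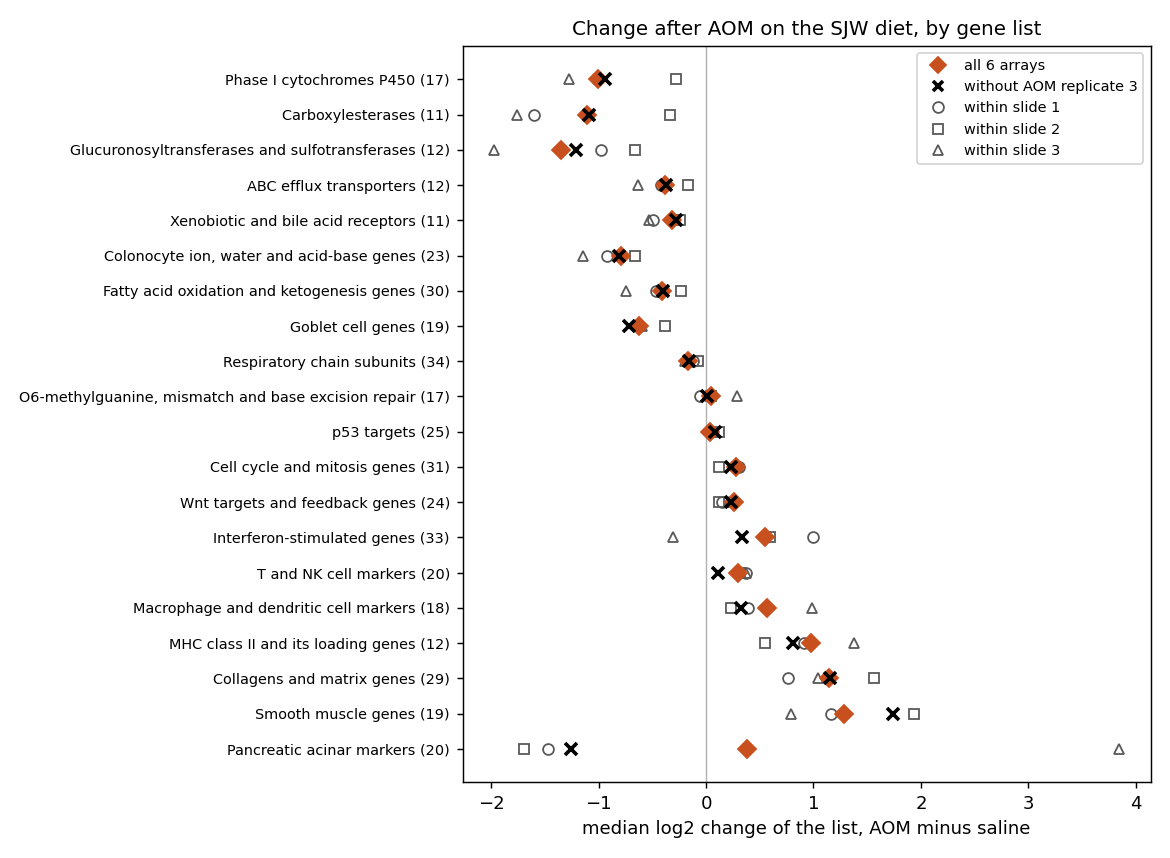
Median log2 change, AOM minus saline on the SJW diet, of 20 gene lists (number of measured genes in parentheses): diamonds for all 6 arrays, crosses without AOM replicate 3, and open circles, squares and triangles within slides 1, 2 and 3. The detoxification lists lie left of 0 on each slide, the matrix and smooth muscle lists lie right of 0 on each slide, and the acinar markers run from -1.69 to 3.85 between slides.

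No goblet cell gene passed. All 19 goblet cell genes had negative changes, with a median of -0.62 and 8 with groups apart, but 0 were called in limma. Atoh1, the factor that specifies secretory cells, read 4.72, 3.30 and 4.51 after saline and 2.78, 2.72 and 2.39 after AOM, a change of -1.54 ± 0.43 (adjusted p = 0.0791). The mucin gene Muc2 was at -0.53 ± 0.56 (adjusted p = 0.621), with overlapping groups. Of 27 small intestine enterocyte genes 1 fell, Mep1b, a brush border protease gene, by 1.55 ± 0.35 (adjusted p = 0.0478), with a list median of -0.30. It read 3.84, 2.19 and 3.68 after saline and 1.89, 1.55 and 1.62 after AOM. The sucrase gene Sis was at -0.45 ± 0.31, and the ileal bile acid carrier Fabp6 also missed the threshold, at -0.42 ± 0.58 (adjusted p = 0.718).

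Among the genes that rose, those of the extracellular matrix gave more calls than any other list. Of 29 matrix genes 12 rose, 0 fell, 27 had positive changes and 22 had groups apart, with a median of 1.15. Col1a1, the main fibrillar collagen chain, read -3.67, -2.92 and -3.50 after saline and -2.48, -0.04 and -1.76 after AOM. AOM replicate 2 was the highest array, and Col1a1 rose by 1.94 ± 0.43 (adjusted p = 0.0424), or 1.25 without that array (adjusted p = 0.0882). Ccn2, a matricellular growth factor induced by TGF-beta and mechanical strain, read -3.13, -3.26 and -3.70 after saline and -2.21, 0.34 and -1.57 after AOM. It rose by 2.21 ± 0.50 (adjusted p = 0.0478), or 1.47 without AOM replicate 2. The related Ccn1 was steadier, at -2.39, -2.74 and -2.28 against -0.72, -0.48 and -1.14. Ccn1 rose by 1.69 ± 0.29 (adjusted p = 0.0198) and passed with reference brightness as a covariate. Col5a1 rose by 1.52 ± 0.28 (adjusted p = 0.0272), although its 2 probes gave 0.62 and 1.52. The elastic fibre gene Eln rose by 1.17 ± 0.22 (adjusted p = 0.0272), and the proteoglycan gene Dcn by 1.63 ± 0.31 (adjusted p = 0.0272). The basement membrane collagens Col4a1 and Col4a2 rose by 1.11 ± 0.23 and 1.1 ± 0.23.

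Of the 29 matrix genes, 25 were highest in AOM replicate 2 among the AOM arrays. The list's mean was -1.42, -1.09 and -1.34 on the saline arrays and -0.68, 0.36 and -0.45 on the AOM arrays, so all AOM arrays lay above all saline arrays. The median was 0.76, 1.56 and 1.04 within slides and 1.15 without AOM replicate 3. Smooth muscle genes moved with the matrix list: all 19 had positive changes and all 19 were highest in AOM replicate 2 among the AOM arrays, with a median of 1.28, and 0 were called in limma. The muscle intermediate filament gene Des read 0.33, 0.58 and -1.73 after saline and 2.34, 3.87 and 0.76 after AOM, a change of 2.60 ± 0.81 (adjusted p = 0.109). Their mean was 0.05, 0.11 and -0.77 after saline and 1.2, 2.15 and 0.20 after AOM. The part of muscle wall content in the matrix values was not tested. Outside the lists, the muscle actin gene Acta1 rose by 2.08 ± 0.40 (adjusted p = 0.0278), Gas1, a growth arrest gene of the cell surface, by 1.88 ± 0.40 (adjusted p = 0.0383), Wfdc1 by 1.77 ± 0.32 (adjusted p = 0.0252) and Fstl1, a secreted glycoprotein gene, by 1.72 ± 0.32 (adjusted p = 0.0272).

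**Figure D3:**
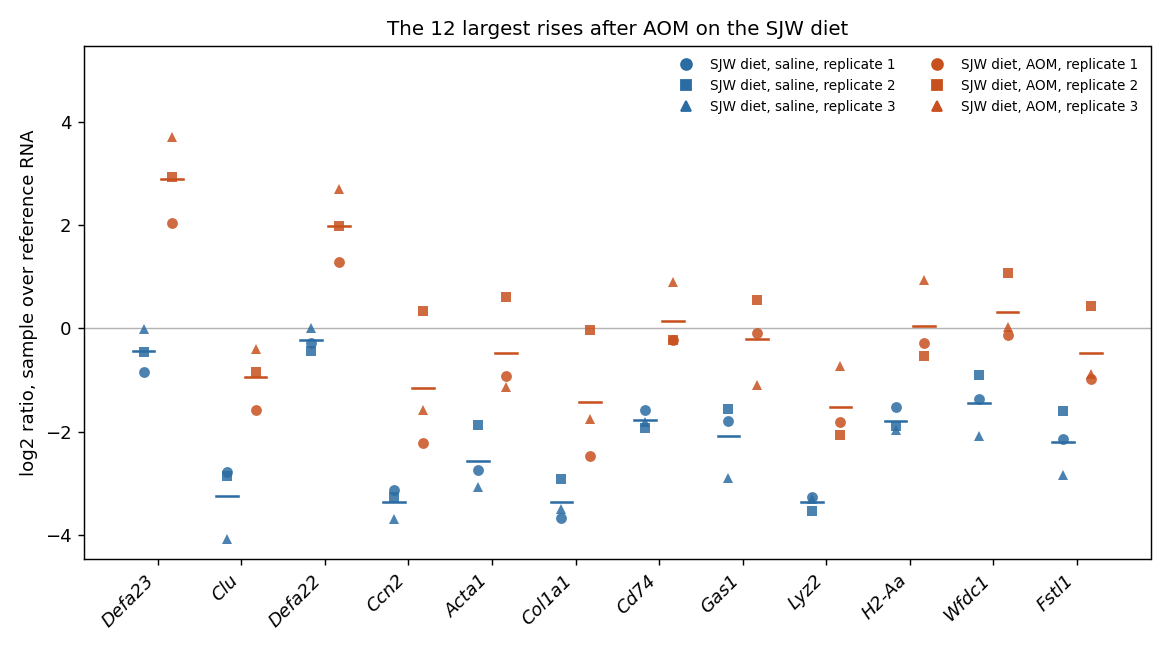
Log2 ratio of sample over reference RNA for the 12 named genes with the largest rises, with 1 point per array (circle, square and triangle for replicates 1 to 3; blue after saline, orange after AOM) and a bar at each group mean. The orange square, AOM replicate 2, is the highest point of Ccn2, Acta1, Col1a1, Gas1, Wfdc1 and Fstl1, and the orange triangle, AOM replicate 3, is the highest of Defa23, Clu, Defa22, Cd74, Lyz2 and H2-Aa.

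Genes of MHC class II, the complex that shows peptides to CD4+ T cells, rose in 4 of 12 measured members, with 11 positive changes and 8 with groups apart. The class II genes are driven together by the coactivator Ciita through a shared promoter module, whose Y box holds an inverted CCAAT pentamer. Cd74, the invariant chain that guides class II molecules, read -1.58, -1.93 and -1.81 after saline and -0.22, -0.22 and 0.90 after AOM. It rose by 1.93 ± 0.31 (3.80-fold; adjusted p = 0.0198), or 1.55 without AOM replicate 3 (adjusted p = 0.0638). H2-Aa, the alpha chain, read -1.53, -1.90 and -1.97 after saline and -0.28, -0.54 and 0.93 after AOM, a rise of 1.84 ± 0.37 (adjusted p = 0.0303). H2-Ab1, the beta chain, rose by 1.67 ± 0.33 (adjusted p = 0.0301), from -1.55, -1.99 and -1.69 to -0.40, -0.63 and 0.81. H2-DMa, part of the peptide loading complex, rose by 1.04 ± 0.21 (adjusted p = 0.0326). In these 4 genes each AOM array lay above each saline array, and AOM replicate 3, the array with acinar transcripts, was the highest. Without that array H2-Aa was at 1.39 (adjusted p = 0.108), H2-Ab1 at 1.23 (adjusted p = 0.0939) and H2-DMa at 0.85 (adjusted p = 0.128). Ciita read 0.65, 0.42 and 0.46 after saline and 1.71, 0.84 and 1.73 after AOM, a change of 0.92 ± 0.27 that did not pass (adjusted p = 0.0891). The loading gene H2-DMb1 was at 1.25 ± 0.31 (adjusted p = 0.0615), the inhibitory chains H2-Ob at 1.08 ± 0.38 (adjusted p = 0.142) and H2-Oa at 0.26 ± 0.35 (adjusted p = 0.711), and the protease Ctss at -0.14 ± 0.14 (adjusted p = 0.585).

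The promoters of H2-Aa, H2-DMb1, H2-Ob and H2-Oa are shown because their genes ran from a called rise to a change of 0.26. They are the 150 bases before the annotated start, 5′ to 3′, from RefSeq (build GRCm38.p6; chr17:34287824-34287973 on the minus strand, and chr17:34153041-34153190, chr17:34238755-34238904 and chr17:34092229-34092378 on the plus strand), with the pentamer ATTGG in capitals.
H2-Aa: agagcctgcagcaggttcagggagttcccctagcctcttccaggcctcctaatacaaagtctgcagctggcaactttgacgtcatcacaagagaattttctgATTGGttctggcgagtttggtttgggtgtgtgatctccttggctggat
H2-DMb1: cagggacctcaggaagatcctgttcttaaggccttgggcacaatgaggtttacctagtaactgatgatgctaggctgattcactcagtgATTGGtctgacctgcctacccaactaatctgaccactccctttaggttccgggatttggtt
H2-Ob: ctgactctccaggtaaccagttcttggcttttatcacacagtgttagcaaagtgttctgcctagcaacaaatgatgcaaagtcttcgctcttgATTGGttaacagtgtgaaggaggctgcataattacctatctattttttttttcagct
H2-Oa: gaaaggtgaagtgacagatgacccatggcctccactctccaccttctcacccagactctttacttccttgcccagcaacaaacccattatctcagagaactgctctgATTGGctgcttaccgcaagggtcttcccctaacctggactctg
The pentamer began 48, 61, 57 and 43 bases before the start in these 4 promoters, H2-Oa included. ATTGG or its reverse complement CCAAT, searched on both strands from 250 bases before to 50 after the start, was present for 8 of the 10 listed genes that had a window. Over all 32851 windows of that length 37.4% held it, so its presence is common and is a description only. The count of 8 is by gene, and the share is by window. Cd74, H2-Ab1 and Ciita had no window. H2-DMa held a match in 1 of its 2 windows, 198 bases before the start.

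Macrophage and dendritic cell markers rose in 3 of 18 members, with 17 positive changes and a median of 0.56. Lyz2, the lysozyme of macrophages, read -3.27, -3.54 and -3.31 after saline and -1.81, -2.06 and -0.72 after AOM, a rise of 1.84 ± 0.39 (adjusted p = 0.0380), or 1.44 without AOM replicate 3 (adjusted p = 0.146). The complement genes C1qc and C1qa rose by 1.34 ± 0.30 and 1.32 ± 0.30 (adjusted p = 0.0447 and 0.0479). Without AOM replicate 3, C1qa was at 0.83 (adjusted p = 0.117) and the list median at 0.32. That array was the highest AOM array for 16 of the 18 markers and for 9 of the 12 class II genes. The class II median was 0.98 with it and 0.81 without it. It was 0.91, 0.55 and 1.38 within slides and 1.03 with reference brightness as a covariate. The list mean was 0.15, -0.02 and -0.14 on the saline arrays and 0.84, 0.53 and 1.29 on the AOM arrays.

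T and NK cell markers rose in 2 of 20 members, Thy1 by 1.02 ± 0.16 (adjusted p = 0.0198) and Cd2 by 1.09 ± 0.24 (adjusted p = 0.0412). Thy1 is also made by fibroblasts and neurons. Cd2 had signal well above background on 2 saline arrays, and its change by the scanner's log ratio was 2.17 (adjusted p = 0.0519). Cd4 was at -0.21 ± 0.12 (adjusted p = 0.354). The immunoproteasome gene Psmb8 rose by 1.05 ± 0.24 (adjusted p = 0.0459), the only call among 20 MHC class I and peptide loading genes, whose median of 0.04 went to -0.10 with median centring. Interferon-stimulated genes had a median of 0.55 and 0 calls among 33, and their direction turned between slides, at 1.00, 0.59 and -0.31. Their mean was -0.58, -0.28 and 1.31 on the saline arrays, where replicate 3 was highest for 32 of 33 genes, and 0.52, 0.41 and 1.11 after AOM. Among 29 inflammatory cytokines and effectors 1 was called, Il18, an epithelial cytokine, which fell by 0.96 ± 0.18 (adjusted p = 0.0272). Il1b was at 0.27 ± 0.35 (adjusted p = 0.692), Ptgs2 at 0.97 ± 0.34 (adjusted p = 0.147) and Lcn2 at 0.76 ± 0.64 (adjusted p = 0.524).

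**Figure D4:**
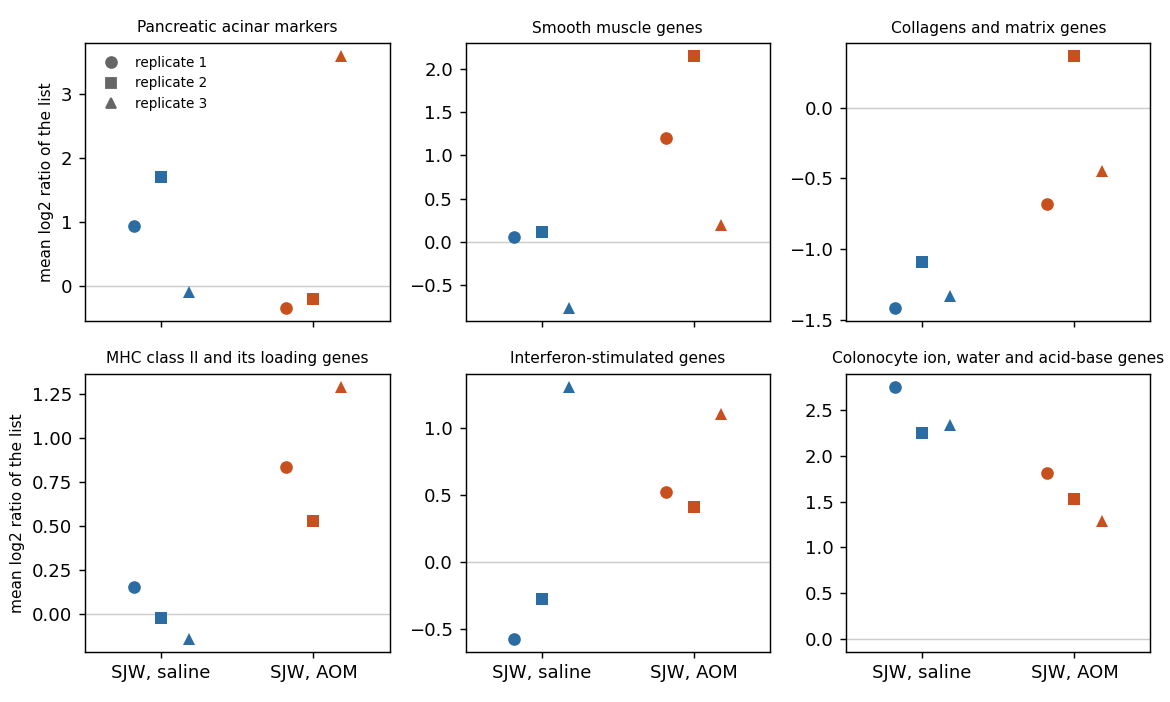
Mean log2 ratio of 6 gene lists on each array, with circle, square and triangle for replicates 1 to 3, blue after saline and orange after AOM; each panel has its own scale. Matrix, smooth muscle, class II and colonocyte means do not overlap between the groups. The acinar mean is 3.60 in AOM replicate 3, and the interferon mean is 1.31 in saline replicate 3.

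The largest rise among named genes was that of a Paneth cell defensin. Defa23, an antimicrobial peptide gene, read -0.85, -0.45 and -0.01 after saline and 2.04, 2.94 and 3.71 after AOM, a rise of 3.33 ± 0.57 (adjusted p = 0.0198). Only 1 of the 3 saline arrays gave a signal well above background for it, which leaves the size of the rise uncertain. Defa22 read -0.28, -0.43 and 0.01 after saline and 1.29, 1.98 and 2.70 after AOM, a rise of 2.22 ± 0.48 (adjusted p = 0.0383). The defensins are near-identical in sequence and may share signal. Lyz1, the lysozyme of Paneth cells, rose by 1.71 ± 0.39 (adjusted p = 0.0484), and it shares much of its sequence with Lyz2. Without AOM replicate 3, Defa23 was at 2.93 (adjusted p = 0.0760), Defa22 at 1.87 (adjusted p = 0.152) and Lyz1 at 1.31 (adjusted p = 0.200). Those 3 were the called genes among 12 of the Paneth list. Of the list, 6 had positive changes and 4 had all AOM arrays above all saline arrays, among them Defa20 at 0.82 ± 0.46 (adjusted p = 0.335). The 2 probes of Defa3 disagreed, at 0.37 for the probe used and 3.41 for the other. Among the 6 negative members, Itln1 was at -1.73 ± 0.91 (adjusted p = 0.303) and Reg3b at -1.53 ± 1.30 (adjusted p = 0.530). The list median was 0.09, and it was -0.15 without AOM replicate 3, the highest AOM array for all 12 genes.

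Wound-associated epithelial genes gave 2 rises among 23. Clu, a secreted chaperone gene, read -2.78, -2.86 and -4.07 after saline and -1.57, -0.85 and -0.39 after AOM, a rise of 2.30 ± 0.39 (4.91-fold; adjusted p = 0.0198). Ly6d, a surface protein gene, rose by 1.53 ± 0.35 (adjusted p = 0.0484), or 1.25 without AOM replicate 3 (adjusted p = 0.203). The list median was 0.14, and -0.09 with median centring. Cp, the copper-binding ferroxidase, rose by 1.27 ± 0.26 (adjusted p = 0.0326), and the zinc transporter Slc39a5 fell by 0.71 ± 0.16 (adjusted p = 0.0484).

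Signalling targets gave fewer calls. Among 25 p53 targets 1 rose: Phlda3, which restrains AKT signalling, read -1.33, -1.64 and -1.69 after saline and -0.25, 0.11 and 0.37 after AOM, a rise of 1.63 ± 0.25 (adjusted p = 0.0198). Phlda3 also passed with reference brightness as a covariate (1.86, adjusted p = 0.0200). The other p53 targets gave no call: the cell cycle inhibitor Cdkn1a was at -0.01 ± 0.28 (adjusted p = 0.983) and Mdm2 at 0.07 ± 0.15 (adjusted p = 0.838). The list median was 0.04. DNA repair genes had a median of 0.04 with 0 of 17 called in limma. Of 29 ERK feedback and immediate early genes 3 rose, Dusp6 by 0.82 ± 0.15 (adjusted p = 0.0272), Egr1 by 1.1 ± 0.23 (adjusted p = 0.0351) and Phlda1 by 0.73 ± 0.17 (adjusted p = 0.0478; 0.0518 with slide as a block). Among 11 genes of the insulin-like growth factor axis the binding proteins Igfbp5 and Igfbp7 rose, by 1.58 ± 0.24 and 1.33 ± 0.21 (adjusted p = 0.0198 for each). Igfbp5 read -2.84, -2.73 and -3.22 after saline and -1.68, -1.25 and -1.11 after AOM.

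Of 24 Wnt targets and feedback genes 1 rose, Dkk3 by 1.54 ± 0.32 (adjusted p = 0.0369). The list had 15 positive and 9 negative changes, with a median of 0.26. The stem cell marker Lgr5 was at -0.94 ± 0.36 (adjusted p = 0.176), Axin2 at -0.15 ± 0.28 (adjusted p = 0.802) and Myc at -0.01 ± 0.27 (adjusted p = 0.985). Tgfbi, a TGF-beta-induced matrix protein gene, was the only call among 22 BMP and TGF-beta genes, with a rise of 1.39 ± 0.29 (adjusted p = 0.0372). Cell cycle genes had 27 positive changes of 31, a median of 0.28 and 0 calls in limma, with Mki67 at -0.01 ± 0.21 (adjusted p = 0.990).

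Genes were also ranked by their largest unadjusted p in limma when any 1 of the 6 arrays was left out. Those with the smallest were, besides Slc37a2, Abcb1a, Abcb1b, Phlda3, Igfbp5 and Cd74, 4 genes of the cell surface and matrix. The rank follows how small p stayed, not how little the change moved, and Cd74 ranged from 1.55 to 2.11 over these fits. Lama5, a laminin chain of basement membrane, read -0.62, -0.69 and -0.70 after saline and 0.47, 0.43 and 0.58 after AOM, a rise of 1.16 ± 0.17 (adjusted p = 0.0198). Itgb3, an integrin chain, read -0.30, -0.25 and -0.31 after saline and 0.91, 1.04 and 0.53 after AOM. It rose by 1.11 ± 0.17 (adjusted p = 0.0198) and passed without AOM replicate 3 (1.26, adjusted p = 0.0338). The saline arrays of both genes lay within 0.1 log2 units of each other. Sulf2, which edits heparan sulfate, rose by 1.53 ± 0.23, and the tetraspanin Tspan4 by 1.17 ± 0.18 (adjusted p = 0.0198 for each).

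The same contrast on the control diet, from separate arrays on the same slides and in the same fit, shows where the changes were shared. On the control diet 119 genes were higher after AOM (0.456%) and 33 lower (0.127%). Of the 171 genes that rose on the SJW diet 162 had the same sign on the control diet, with a median of 0.74 and 45 called there. Of the 125 that fell 98 had the same sign, with a median of -0.27 and 5 called there. The share of same signs over all genes was not counted, so these sign counts have no background beside them. The difference between the diets was tested directly, and limma called 0 genes (smallest adjusted p = 0.476), with 2435 (9.34%) at an unadjusted p under 0.05. Slc37a2 fell on both diets, by 2.29 and 2.15, and Lama5, Itgb3, Phlda3 and Igfbp5 rose on both.

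Cd74 changed by 1.93 on the SJW diet and -0.11 on the control diet, a difference of 2.04 ± 0.43 (unadjusted p = 0.00024 in limma). H2-Aa changed by 1.84 and -0.36, a difference of 2.20 ± 0.52, and H2-DMa by 1.04 and -0.18, a difference of 1.22 ± 0.30. The class II median was 0.98 on the SJW diet and 0.03 on the control diet. Differences the other way were those of the aldo-keto reductase Akr1b8 (-1.36 ± 0.23) and the cornified envelope gene Sprr1a (-2.16 ± 0.43). Akr1b8 and Sprr1a had changes of -0.44 and 0.22 on the SJW diet, and both passed on the control diet, at 0.92 and 2.38. The pump Abcb1a was at -2.05 against -0.45 (difference -1.60 ± 0.41) and Slc25a20 at -1.05 against 0.09 (difference -1.14 ± 0.25). The other genes of smallest p in this test were Fam110c (-1.01 against 0.27), Pirt (-0.75 against 0.90), Olfr141 (-0.92 against 0.32), Tppp3 (1.07 against -0.61) and Zfp689 (0.51 against -0.26), SJW diet first. Goblet cell genes had a median of -0.62 on the SJW diet and 0.12 on the control diet. The adjusted p for the difference was at least 0.476 for each of these genes, so none of them is shown to respond differently on the SJW diet.

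**Figure D5:**
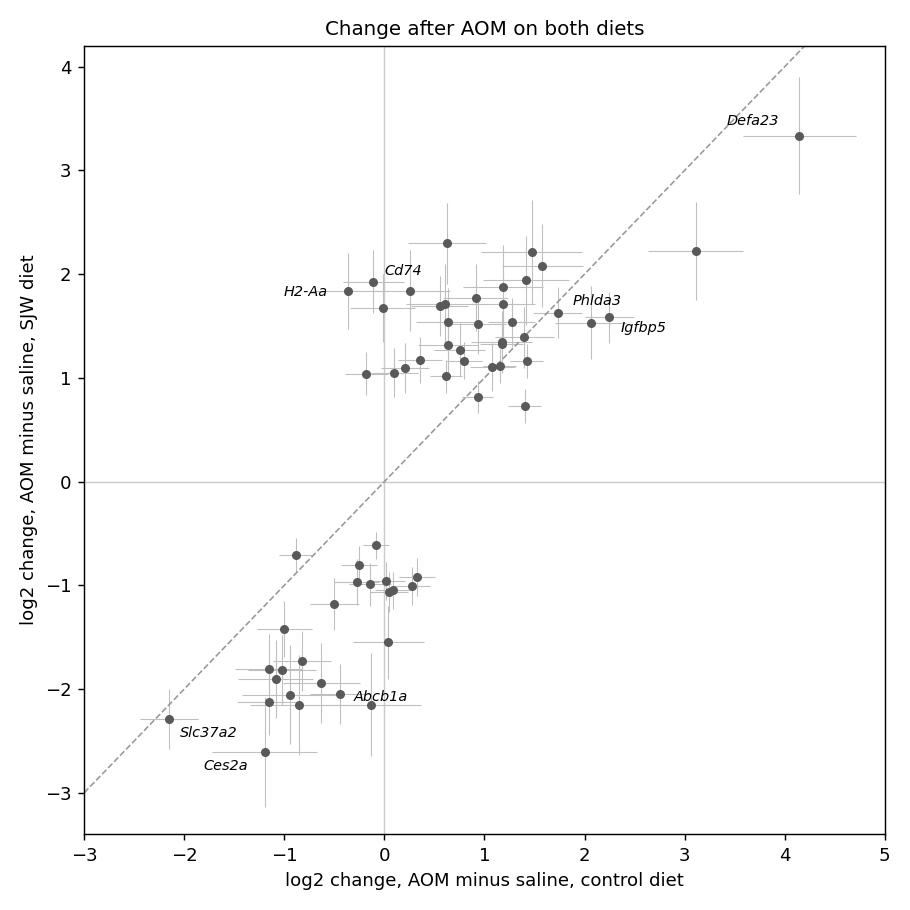
Log2 change after AOM on the SJW diet (vertical axis) against the control diet (horizontal axis) for the 62 named genes called on the SJW diet, with bars of 1 standard error and a dashed line of equal change. Slc37a2 and Phlda3 lie near the line, and Cd74 and H2-Aa lie near 0 on the control diet.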

How the data were processed

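RNA from non-tumour intestine was labelled red (Cy5) and hybridised with a green (Cy3) pool of RNA from 10 mouse tissues, without intestine and without dye swap, on Agilent arrays. Per the file headers, the authors scanned these with Feature Extraction 10.10.1.1 (annotation mm9). The deposited scanner files give spot intensity in arbitrary units, and the median signal of each spot was used in place of the planned mean signal. Background was corrected by normexp (offset 50), ratios by loess within each array with control spots at weight 0. Other forms served as alternatives, namely the deposited log10 ratio of the scanner, and the authors' deposited log2 value table, whose normalization no source used here gives (column medians -0.03 to 0.23 on the 6 arrays, so not centred; same direction as the scanner's ratio).

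Of 41174 probes 34081 passed the filter on dim signal and gave 26073 genes (16799 with a symbol). Symbols were matched by accession to RefSeq. limma 3.58.1 in R 4.3.3 fitted 6 group means over all 18 arrays (12 residual degrees of freedom), with Benjamini-Hochberg adjustment over all genes and a threshold of 0.05. Named genes were the 12 largest rises and falls among called genes with non-overlapping groups that had a gene symbol other than a clone or provisional name, up to 3 called genes of each list and direction, the 10 least dependent on any of the 6 arrays, the 5 of smallest p in each direction of the diet difference, and a panel reported whatever its result; others given beside them were chosen after their values were seen. Mgmt, of the panel, was not tested. Some genes are not reported here. The members, lists and panel were chosen with earlier results of these data known. The fit was tested on simulated data. Arrays limit precision by their number.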

Additional observations from a re-analysis of the deposited data

How the results depend on the processing

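The count of 296 called genes moved with the processing. It was 139 with median centring, 88 with the scanner's log ratio, 19 with the deposited value table, 8 with the red channel alone, 7 with reference brightness as a covariate, 22 with the 12 non-tumour arrays only, 0 with the 6 arrays only (5945 genes at an unadjusted p under 0.05 in limma) and 1 when a fold of 1.2 was required. Leaving out 1 array gave 0 to 600 genes. With slide as a block 431 passed, and 0 did so without SJW AOM replicate 3 as well (2508 at an unadjusted p under 0.05 in limma). The slide block without that array was added after seeing the data. None of the 62 named genes that were called reversed its direction in the settings run. Among named genes that were not called, Amy2a5, Axin2, Cdkn1a, Cpa1, Fabp6, Il1b, Mki67, Myc and Sprr1a changed sign on leaving out 1 array, and Cyp2b10, Pirt and Sis did so under another scaling. Without 1 array, Amy2a5 ranged from -1.96 to 1.41 and Cpa1 from -2.11 to 0.46. The diet difference gave 0 calls in each setting where it could be fitted. Array pairs with the same replicate number, which also shared a slide, had correlated deviations of 0.30, 0.12 and 0.03. These were too low in 1 pair to take the numbers as pairing, although each AOM array correlated best with its own number. A shared slide and a shared number cannot be told apart here. With the replicate block 298 genes passed, 237 of them among the 296. On the non-tumour arrays the replicate and slide blocks are the same grouping, and they differ on the tumour arrays alone.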

Other observations

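Other cell type lists gave no call in limma. All but 1 of 10 tuft cell genes had negative changes (median -0.45), as did 12 of 14 adipocyte markers (median -0.62, with saline replicate 3 highest of its group for 12 genes). Enteric neuron and glia genes had 17 positive changes of 19 (median 0.41), and B and plasma cell markers 12 of 16 (median 0.60, or 0.33 without AOM replicate 3, the highest AOM array for 12 of them). Endothelial markers had 17 positive changes of 18, with a median of 0.34 that was 0.16 without AOM replicate 3. Mast cell markers had a median of 0.57, or 0.29 without that array.

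Other programmes had no call either, and their medians depended on the scaling. Cytosolic ribosomal protein genes had a median of 0.11 with 0 of 34 called in limma, which went to -0.20 with median centring. Circadian genes had a median of -0.17 with 0 of 19 called, which went to -0.02 with median centring, -0.45 with the scanner's log ratio and -0.48 with the deposited table. Tight junction genes had a median of -0.24 with 0 of 19 called. Heat shock and unfolded protein response genes had 20 positive changes of 23 and a median of 0.27, or 0.07 when arrays were centred on their medians or only red signal was used.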
